A study of Bos taurus with 6 samples.

Results

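Transcripts of the oocyte were followed on arrays of cumulus cells, the somatic cells that enclose it. The genes were BMP15, GDF9, ZP2, ZP3, ZP4, OOEP, NLRP5, ZAR1, DPPA3 and UCHL1, and every probe set, the group of short probes that together read a transcript, was taken when a listed gene was its only symbol in the platform annotation. Of the 10 genes, 8 had a probe set, with 2 for BMP15 and 1 for each of the others, which gave 9 of the 24016 probe sets tested, or 8 of 9155 named genes. ZAR1 and DPPA3 had none under that annotation and were not analysed here.

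Ovaries of slaughtered crossbred cows, Bos indicus x Bos taurus, supplied the cumulus cells, which were pipetted off cumulus-oocyte complexes (COCs) with compact cumulus, and pooled before RNA extraction. The large_follicle group held 3 arrays of what the submitters call competent COCs, from follicles of at least 8 mm, and the small_follicle group 3 arrays of their incompetent COCs, from follicles of 1 to 3 mm. The titles call the large_follicle arrays treat1 and the small_follicle arrays treat2, without naming a treatment. The labels describe no difference between the groups beyond follicle size and competence. Follicle size serves the study as a stand-in for the capacity of the oocyte to develop. Arrays within a group are biological replicates by their titles. Since the sources used here do not give the number of cows or complexes per pool, the tests measure only the spread between these pools. No array of oocytes was analysed here, and the name oocyte transcript is therefore prior knowledge and not something these data can show.

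GDF9 and BMP15 are growth factors of the TGF-beta superfamily that the oocyte secretes and that act on the granulosa and cumulus cells around it. ZP2, ZP3 and ZP4 are glycoproteins of the zona pellucida, the coat between the oocyte and its cumulus cells, which cumulus cells cross with fine projections that end on the oocyte. OOEP and NLRP5 are maternal proteins of the complex beneath the oocyte membrane that early embryos need. UCHL1 is a deubiquitinating enzyme that is abundant in oocytes and is also known from neurons and testis, so it is the member least restricted to the oocyte.

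Values are log2 signals of the deposited RMA summary, a method that corrects background, brings arrays to a common scale and combines the probes of a set. The summary gives no call of presence or absence, and probe sets differ in how strongly they bind, so a signal does not rank the amounts of different transcripts. Over the 6 arrays the medians lay between 5.64 and 5.68. As marks for reading a signal, the quartiles of all probe set means were 3.83, 5.67 and 7.83. In a bulk sample a change in the number of cells that carry a transcript and a change in RNA per cell cannot be told apart, and the same holds for RNA of an oocyte and RNA of a cumulus cell.

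Apart from UCHL1, the oocyte probe sets had means below the median of all probe sets, OOEP only just. None of the 9 passed the test for a difference between follicle sizes. Of the 9 probe sets, 4 had a mean below the lower quartile of all probe sets, 4 lay between the lower quartile and the median, and 1, UCHL1, lay above the median.

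**Figure D1:**
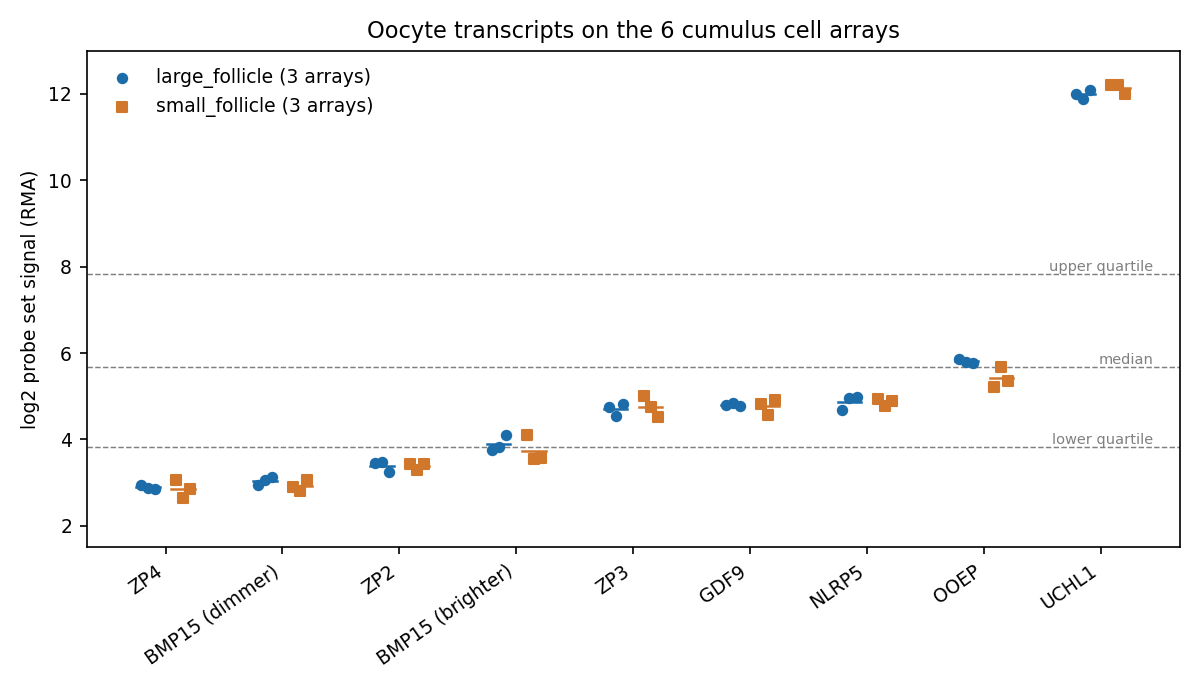
Log2 probe set signal (vertical axis) of the 9 oocyte probe sets (horizontal axis, ordered by mean) on each array, with circles for large_follicle, squares for small_follicle, short bars for group means and dashed lines for the quartiles of all probe set means. UCHL1 lies near 12 on every array, and the other 8 lie between 2.64 and 5.87, where the groups overlap for all but OOEP.

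The secreted growth factors came first. GDF9 (gene ID 282574) read 4.79, 4.85 and 4.78 in large_follicle replicates 1, 2 and 3, and 4.83, 4.56 and 4.91 in small_follicle replicates 1, 2 and 3. Both the highest and the lowest of the 6 readings were in small_follicle arrays, so the groups overlapped. The means were 4.81 ± 0.04 and 4.77 ± 0.18 (SD, n = 3 each), a difference of 0.04 (large minus small) with a standard error (SE) of 0.11 and a 95% interval from -0.22 to 0.30 (limma, Benjamini-Hochberg adjusted p = 0.873). The bound of that interval farthest from 0 corresponds to a 1.23-fold difference in signal. The mean signal of GDF9 exceeded that of 38.4% of all probe sets.

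BMP15 (gene ID 353351) had a pair of probe sets of the same source sequence, and both were dim. The brighter read 3.76, 3.83 and 4.10 in the large_follicle arrays and 4.10, 3.55 and 3.56 in the small_follicle arrays. Small_follicle replicate 1 stood with the highest large_follicle array, and the other small_follicle arrays were the lowest of the 6. The difference was 0.16 ± 0.17 (SE; 95% interval -0.23 to 0.55, limma adjusted p = 0.618). It moved with single arrays, to 0.34 without small_follicle replicate 1 (limma adjusted p = 0.173) and to 0.06 without large_follicle replicate 3, and was not called in any of the 14 alternatives that tested it. The dimmer probe set read 2.95, 3.06 and 3.13 against 2.89, 2.80 and 3.05, with overlap at small_follicle replicate 3. Its difference was 0.13 ± 0.11 (SE; 95% interval -0.11 to 0.38, limma adjusted p = 0.486). Both probe sets had a difference above 0 whose interval included 0. The mean signal exceeded that of 24.8% of all probe sets for the brighter and 11.5% for the dimmer.

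The 3 zona pellucida genes showed no difference beyond the spread between arrays. ZP2 (gene ID 280963) read 3.46, 3.47 and 3.24 in large_follicle arrays and 3.42, 3.28 and 3.43 in small_follicle arrays. The lowest reading of ZP2 was in a large_follicle array and so was the highest. The difference was 0.01 ± 0.11 (SE; 95% interval -0.23 to 0.25, limma adjusted p = 0.958). ZP3 (gene ID 280964), the zona protein best known as a sperm receptor, read 4.74, 4.55 and 4.82 against 5.0, 4.74 and 4.51. Its highest and lowest arrays were both of small follicles, and the difference was -0.05 ± 0.14 (SE; 95% interval -0.37 to 0.28, limma adjusted p = 0.882). ZP4 (gene ID 280965) was the dimmest member, at 2.95, 2.88 and 2.84 against 3.06, 2.64 and 2.84. All 3 large_follicle readings of ZP4 lay inside the range of the small_follicle arrays, and the difference was 0.04 ± 0.12 (SE; 95% interval -0.24 to 0.32, limma adjusted p = 0.872). The mean of ZP4 exceeded that of 9.71% of all probe sets, that of ZP2 18.1% and that of ZP3 37.6%.

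The maternal complex genes differed from each other in how they read. NLRP5 (gene ID 493717) read 4.68, 4.95 and 4.98 in large_follicle arrays and 4.93, 4.78 and 4.88 in small_follicle arrays, all 3 of which lay within the large_follicle range. The difference was 0.01 ± 0.11 (SE; 95% interval -0.25 to 0.26, limma adjusted p = 0.979). OOEP (gene ID 507401) was the only member whose groups did not overlap. It read 5.87, 5.80 and 5.77 in large_follicle arrays and 5.21, 5.68 and 5.36 in small_follicle arrays. The 3 large_follicle readings were close together, and small_follicle replicate 2 fell short of them by 0.09. These 3 readings and small_follicle replicate 2 lay above the median of all probe sets, 5.67. The mean of OOEP exceeded that of 49.5% of all probe sets and that of NLRP5 39.6%. The means were 5.81 ± 0.05 and 5.42 ± 0.24 (SD, n = 3 each), a difference of 0.40 ± 0.13 (SE; 95% interval 0.10 to 0.70) or 1.32-fold in signal. The unadjusted p of limma was 0.0153 and the Benjamini-Hochberg adjusted p over all 24016 probe sets 0.0873, so OOEP did not pass the 0.05 threshold. Without small_follicle replicate 2 the difference was 0.53 and passed (adjusted p = 0.0395), and over all other settings the adjusted p lay between 0.0746 and 0.353.

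**Figure D2:**
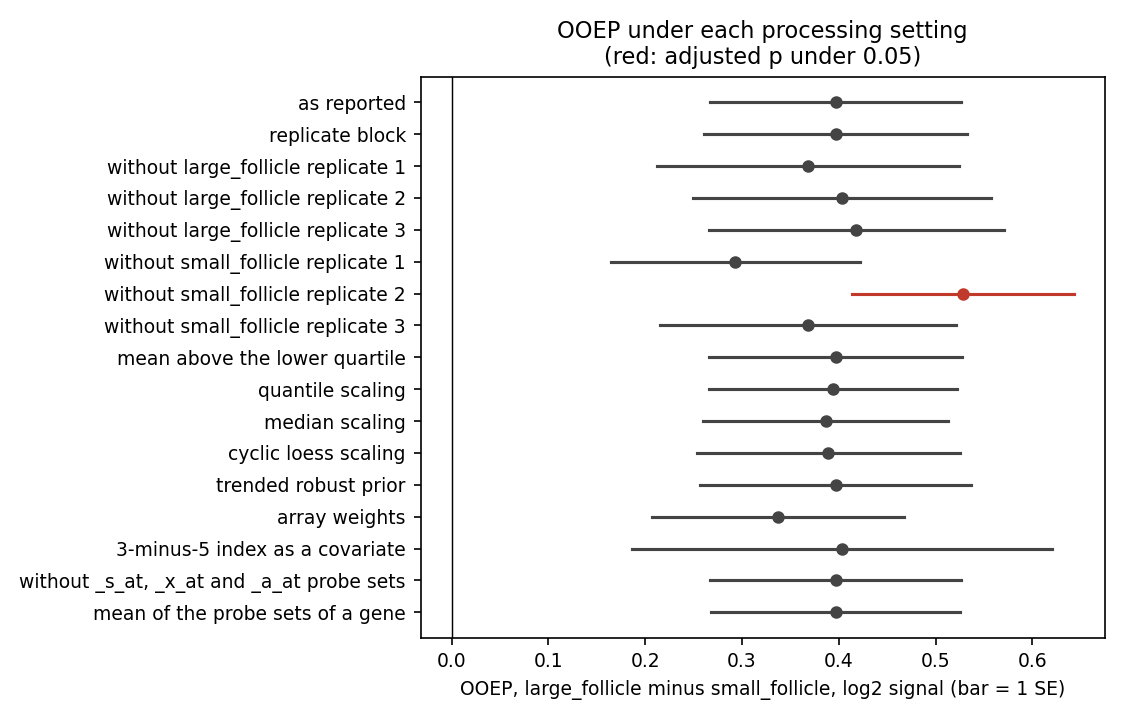
Difference of OOEP between large_follicle and small_follicle arrays (horizontal axis, log2 signal, point and 1 SE) under each processing setting (vertical axis). The difference stays between 0.29 and 0.53 in every setting drawn, and the adjusted p is under 0.05, in red, only without small_follicle replicate 2.

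UCHL1 (gene ID 514394) read 12.01, 11.88 and 12.09 in large_follicle arrays and 12.21, 12.21 and 12.00 in small_follicle arrays. Small_follicle replicate 3 lay among the large_follicle arrays, so the groups overlapped. The means were 11.99 ± 0.11 and 12.14 ± 0.12 (SD, n = 3 each), a difference of -0.15 ± 0.11 (SE; 95% interval -0.39 to 0.10, limma adjusted p = 0.444). The mean over the 6 arrays, 12.07, exceeded that of 98.8% of all probe sets. The cells that the UCHL1 signal came from were not tested.

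Over the members as a whole, 0 of 9 probe sets were called by limma, against 12.9% of all probe sets in either direction (5.72% higher and 7.16% lower in large_follicle arrays). At an unadjusted p under 0.05 there was 1 of 9, OOEP, against 27.0% of all probe sets. The groups did not overlap in 1 of 9, or 11.1%, against 30.9%. The median difference was 0.04 and the median size of the difference 0.05, beside 0.01 and 0.15 over all probe sets. For probe sets with a mean below the median of all, the median difference was 0.03 and the median size 0.11. The differences of 7 member probe sets were above 0 and those of ZP3 and UCHL1 below 0. With BMP15 counted once, 6 of 8 genes were above 0. Above 0 were 52.3% of all probe sets and 57.5% of those with a mean below the median. In this fit of all 6 arrays no difference apart from OOEP exceeded 0.16. The farthest 95% bound was 1.62-fold for OOEP and, among the others, 1.46-fold for the brighter BMP15 probe set. Near background, RMA signals understate changes in transcript, so these are bounds on signal.

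**Figure D3:**
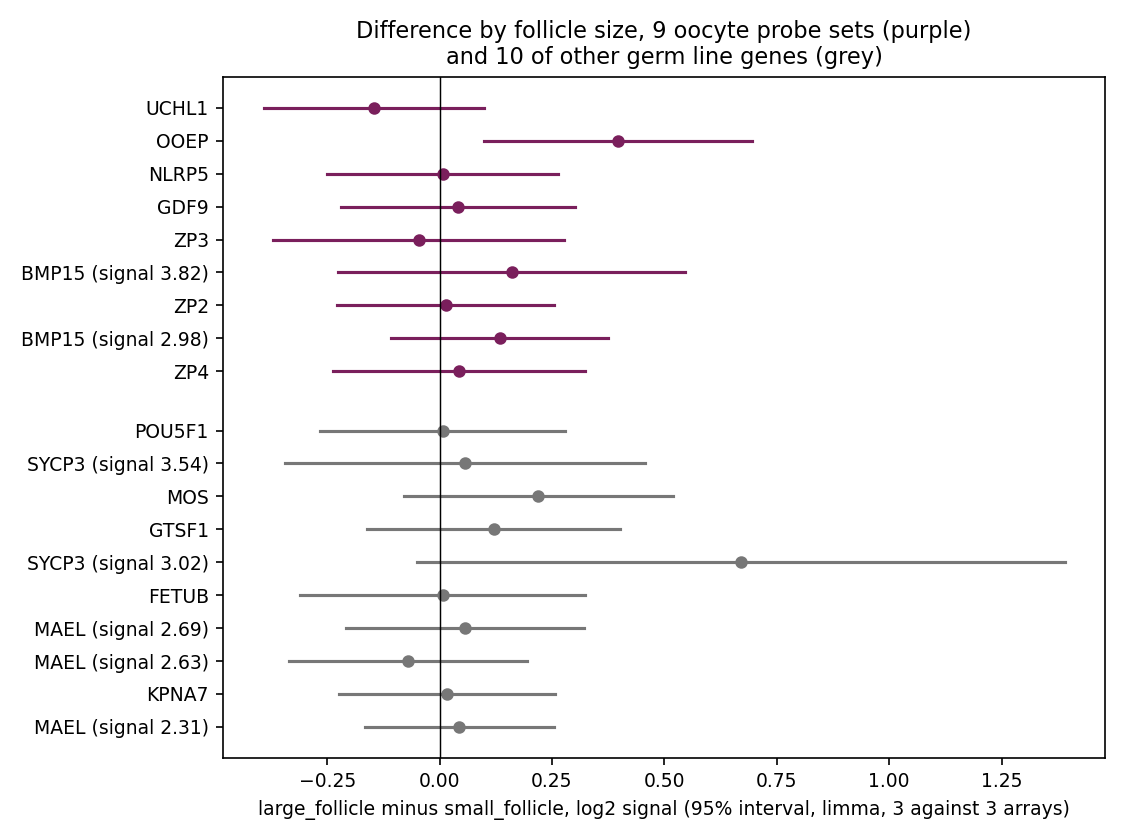
Difference in log2 signal between large_follicle and small_follicle arrays (horizontal axis, point with the 95% interval of limma, 3 against 3 arrays) for the 9 oocyte probe sets in purple and 10 probe sets of 7 further oocyte and germ line genes in grey, each block ordered by mean signal. The interval of OOEP, from 0.10 to 0.70, is the only one of the 19 that leaves out 0, before any adjustment.

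The SD of the oocyte probe sets over the 6 arrays ran from 0.10 for ZP2 to 0.27 for OOEP. Its median was 0.13, beside 0.18 over all probe sets and 0.17 over those with a mean below the median. Within groups the median SD was 0.13, beside 0.15 and 0.16, so the spread between replicate arrays was close to that of other probe sets. No array was high for all of the oocyte probe sets. Leaving out UCHL1 and reading BMP15 from its brighter probe set, the mean deviation of the 7 genes from their own means was 0.03, 0.04 and 0.07 in large_follicle replicates 1, 2 and 3 and 0.07, -0.12 and -0.08 in small_follicle replicates 1, 2 and 3. The 2 highest arrays thus came from different groups. Large_follicle replicate 3 was highest for 2 of the 7 genes and small_follicle replicate 1 for 3, with BMP15 tied between them. Small_follicle replicate 2 was the lowest array for 3 of the 7 genes and the highest for 0.

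To place the signals, the members were set beside genes of eye, liver, pancreas, pituitary, mammary gland, heart and other organs, which cumulus cells are not known for. Their 68 probe sets had a median signal of 4.37, and 53 lay at or below the median of all probe sets. GDF9, ZP3, OOEP, NLRP5 and UCHL1 exceeded 4.37 on all 6 arrays, and BMP15, ZP2 and ZP4 did not. By the rule used here, a signal above the 95th percentile of that list (9.27) on all 6 arrays, 1 of the 9 members, UCHL1, counted as above background, as did 9.32% of all probe sets. The same 1 member exceeded the 90th percentile (8.74) and the median of all probe sets (5.67) on all 6 arrays. OOEP exceeded that median on the large_follicle arrays and small_follicle replicate 2 only. The brightest of the TrpnX control probe sets, which read a bacterial gene, averaged 2.81, and 7 of the 9 probe sets exceeded it on all 6 arrays, the dimmer BMP15 probe set and ZP4 being below it on at least 1. Whether that control had been added to the samples is not stated in the labels.

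The limits of such a reading showed in the same lists. Of the 68 probe sets of other organs some were bright, with TNNI3, a heart troponin, at 12.99 and POMC at 14.03 (8.63 by its other probe set), a probe set whose annotation was not checked here. Of 17 measured granulosa and cumulus markers, 6 rose, 1 fell and 10 did not pass, where 12.9% of all probe sets were called, and their median signal was 10.98. FST at 13.94, INHBA at 13.50 and INHA at 13.17 were bright, while FOXL2, a transcription factor of granulosa cells, read 4.73 and KITLG, the ligand by which granulosa cells signal to the oocyte, 2.70. FOXL2 thus read within the range of the oocyte probe sets and KITLG below the mean of each of them. A dim signal was therefore also found for genes that cumulus cells are known to express. The rule was strict as well. The markers FSHR at 8.07, NR5A2 at 9.005 and NR5A1 at 9.08, all above the median of all probe sets, did not exceed 9.27 on all 6 arrays.

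**Figure D4:**
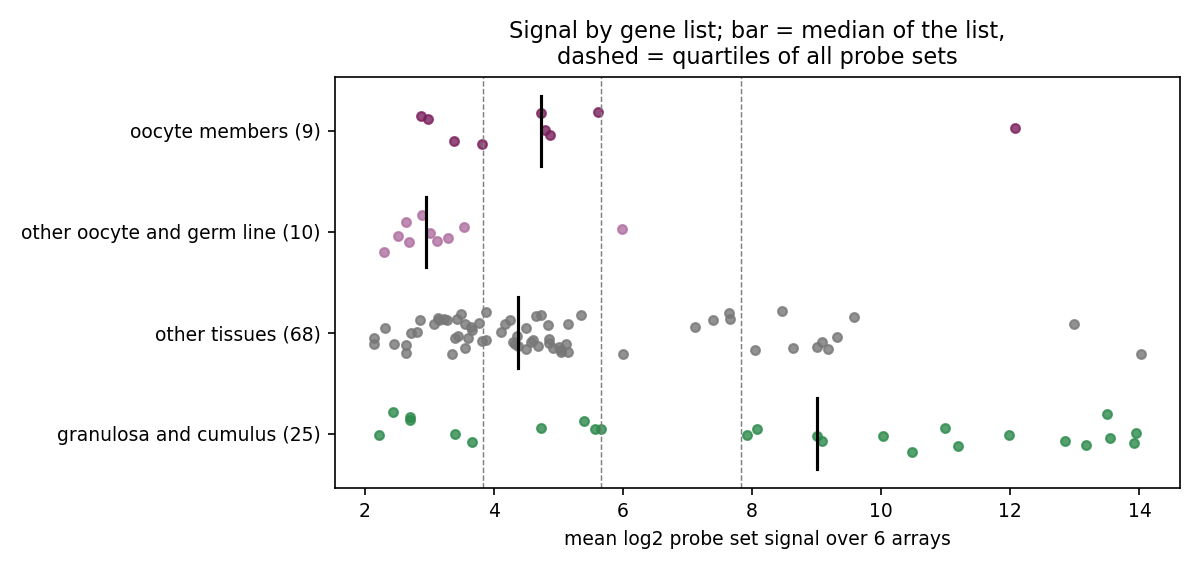
Mean log2 signal over 6 arrays (horizontal axis) of each probe set in 4 gene lists (vertical axis, number of probe sets in brackets, vertical scatter for visibility only), with a bar at the median of each list and dashed lines at the quartiles of all probe sets. The oocyte members have a median of 4.73 and the genes of other organs 4.37, with bright exceptions in both, and the granulosa and cumulus markers run from 2.23 to 13.94.

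Further genes of the oocyte and germ line had no called difference, and all but 1 of their 10 probe sets, that of POU5F1, read below the median of all probe sets. Of 49 listed symbols, older names included, 7 genes had a probe set. None was called by limma in either direction, beside 12.9% of all probe sets. An unadjusted p under 0.05 was found for 0, beside 27.0% of all probe sets, and the median difference was 0.06. With 7 genes these counts cannot be told from those shares. POU5F1, a pluripotency factor, had the highest signal, at 5.86, 6.06 and 6.03 in large_follicle arrays and 6.18, 5.89 and 5.86 in small_follicle arrays. The groups of POU5F1 overlapped fully, with a difference of 0.01 ± 0.12 (SE). MOS, a kinase of meiotic arrest, read 3.48, 3.20 and 3.52 against 3.38, 3.11 and 3.05, a difference of 0.22 ± 0.13 (SE; limma adjusted p = 0.338). It was 0.16 to 0.32 leaving out 1 array and 0.52 ± 0.16 (SE; limma adjusted p = 0.151) adjusted for the index of signal at the 3′ against the 5′ end of control transcripts, and was not called in any of its 15 alternatives. SYCP3 of the synaptonemal complex averaged 3.54, GTSF1 3.13, FETUB, which keeps the zona pellucida from hardening early, 2.90, and the germ line gene MAEL 2.69. In a second, dimmer probe set of SYCP3, large_follicle replicate 3 stood at 4.15 and the other 5 arrays between 2.38 and 3.04.

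The receptors and mediators of GDF9 and BMP15 were measured on the cumulus side. Of 10 measured genes 2 rose, 0 fell and 8 did not pass, beside 12.9% of all probe sets. BMPR2, the type II receptor for both ligands, read 6.56, 6.63 and 6.31 in large_follicle arrays and 6.03, 6.13 and 5.77 in small_follicle arrays, without overlap (difference 0.52, limma adjusted p = 0.036), though further BMPR2 probe sets at lower signals read 0.09 and 0.03. BMPR1B, the type I receptor of BMP15, read 3.94, 3.92 and 4.42 against 3.64, 3.56 and 3.46 (difference 0.54, adjusted p = 0.047; 0.08 and not called by its other, dimmer probe set), a signal as low as that of the brighter BMP15 probe set. Neither call was stable to single arrays. The call of BMPR2 was lost without large_follicle replicate 1 (0.49) or 2 (0.46), without small_follicle replicate 1 (0.55), 2 (0.60) or 3 (0.42) and adjusted for the RNA index described last (0.66). That of BMPR1B was lost when any 1 array was left out (0.38 to 0.63), with the replicate block (0.54, adjusted p = 0.0946) and adjusted for the index (0.69). The ligands GDF9 and BMP15 showed no called difference.

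The pattern of UCHL1, the only member above background by the rule, was compared with 1733 probe sets of other named genes whose mean was above the median and whose SD over the 6 arrays was at least 0.3. The 10 most alike, by Pearson r over 6 arrays, were FADS2 (r = 0.99), RRM1, SPC24, PRADC1, CRELD2, PDXP, MGST1, ASF1B, DTYMK and BIRC5 (r = 0.97). FADS2, a fatty acid desaturase, read 8.52, 8.23 and 8.76 in large_follicle arrays and 9.22, 9.15 and 8.44 in small_follicle arrays, with the same order of high and low arrays as UCHL1 but a wider spread. None of the 10 was called, beside 12.9% of all probe sets. They were chosen for likeness to UCHL1, itself not called, so this count is no separate result. The arrays and their scaling are shared by all of them, and the likeness is a description over 6 points.

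**Figure D5:**
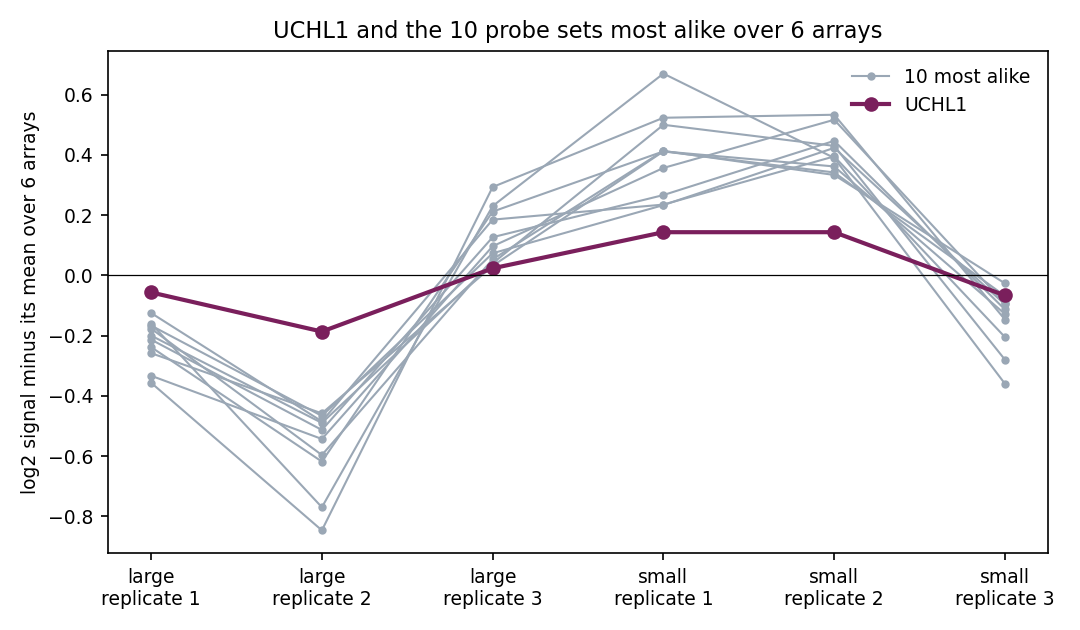
Log2 signal minus its own mean over the 6 arrays (vertical axis) for UCHL1 and the 10 probe sets most like it, on each array (horizontal axis, replicates in no order, lines joining the points of 1 probe set). UCHL1 is lowest in large_follicle replicate 2 and highest in small_follicle replicates 1 and 2, and spans 0.33 log2 units.

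Signs of RNA quality and of other cells differed between the arrays that gave these values. The mean difference between 3' and 5' probe sets of 6 control transcripts was 2.15, 1.77 and 2.01 in large_follicle arrays and 2.68, 2.53 and 2.16 in small_follicle arrays (2-sided exact permutation p = 0.1, which is the lowest possible with 3 arrays per group). The groups did not overlap in this index, so a fit adjusted for it cannot cleanly separate the index from follicle size. Adjusted for the index, the brighter BMP15 probe set differed by 0.41 ± 0.26 (SE) in place of 0.16, and OOEP by 0.40 ± 0.22. ZP3 differed by 0.32 ± 0.16 in place of -0.05, and UCHL1 by 0.06 in place of -0.15, none of them called by limma. Of 15 leukocyte markers 2 rose and 0 fell, beside the 12.9% of all probe sets called, and 14 were above 0 with a median difference of 0.51. Large_follicle replicate 1 was the highest array for 13 of the 15, with a mean deviation of 0.81. Their summed levels were 63.08 to 77.96 in large_follicle arrays and 58.52 to 68.28 in small_follicle arrays. Of 12 theca and stroma markers 1 rose and 0 fell (sums of 77.32 to 81.31 and 74.72 to 82.13), and of 7 endothelial markers 0 rose and 1 fell (27.49 to 29.03 and 27.18 to 28.57). Among the 33 measured genes of other organs 1 rose and 1 fell. The part of these in the oocyte readings was not tested.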

How the data were processed

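Signals came from 6 Affymetrix bovine arrays, 3 per group. The deposited log2 probe set signals were made by the authors with RMA, per the submitters' processing notes, with software and settings not given in the sources used here. Tests omitted the 112 control probe sets. Of the 24016 others, 13292 carried 1 gene symbol, 86 several and 10638 none; 13263 matched RefSeq (ARS-UCD2.0) by gene ID, which changed 0 symbols. limma 3.58.1 under R 4.3.3 fitted all of them (lmFit, eBayes, large_follicle minus small_follicle, no block, no filter), 2-sided, with Benjamini-Hochberg adjustment over 24016 at 0.05. Members and lists were chosen with earlier results of these data known. Named were all members and the 10 probe sets most like the members above background (or the brightest alone). The 6 brightest further germ line genes were named too, each read from its brightest probe set. By plan up to 4 genes with the smallest p could be named from each other list, read likewise. BMPR2 and BMPR1B were named so, and many such genes of the remaining lists are not named here. FST, INHBA, INHA, FOXL2, KITLG, FSHR, NR5A2, NR5A1, POMC, TNNI3 and second probe sets were picked after their values were seen. Alternatives were a replicate block, leaving out arrays, filters, scalings, priors, weights, an RNA index and other background bounds. The procedure was tested on simulated data. Array number limits the precision. Figures used python 3.11.15 and matplotlib 3.10.9.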

Additional observations from a re-analysis of the deposited data

How the results depend on the processing

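Of the alternatives, 1 gave a called member: without small_follicle replicate 2 the count was 1, OOEP, and leaving out each array in turn gave 0 to 1 called members; in the filters at the lower quartile and the median only 5 and 1 member probe sets were tested. OOEP was above 0 in all 16 alternatives that tested it, at 0.29 to 0.53. The count over all probe sets, 3094, fell to 1964 with the replicate block and to 215 adjusted for the 3'-minus-5' index. It lay between 1615 and 2477 leaving out 1 array. The index did not overlap between the groups, so its adjustment cannot cleanly separate it from follicle size. With it the SE of OOEP rose from 0.13 to 0.22. Same-numbered arrays correlated at -0.002, -0.05 and -0.34 in their deviations from the group means, and the other pairs at -0.28 to 0.32. Deviations from a shared mean depend on each other, so these values cannot decide whether replicate numbers pair the arrays. The labels do not say whether they do. The block called no member either, and among the other genes named with a test it ended the call of BMPR1B only. The 3'-minus-5' index difference was -0.63 to -0.37 leaving out 1 array, against -0.48. Against the median of the other-organ probe sets 5 members lay above background and against the TrpnX control 7, both chosen after seeing the data, where the 95th percentile gave 1.

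The brighter BMP15 probe set stayed above 0, at 0.058 to 0.34 leaving out 1 array and 0.41 adjusted for the index, and MOS at 0.16 to 0.32 and 0.52. Differences near 0 changed sign. Leaving out 1 array, ZP2 ran from -0.035 to 0.088, ZP3 from -0.17 to 0.078, NLRP5 from -0.048 to 0.10, GDF9 from -0.063 to 0.11, ZP4 from -0.06 to 0.15 and POU5F1 from -0.052 to 0.11. NLRP5 read -0.0228 with quantile, -0.0232 with cyclic loess and -0.0033 with median scaling and -0.0315 with array weights, ZP2 -0.0006 with quantile and -0.0085 with cyclic loess scaling, and POU5F1 -0.0033 with median scaling and -0.0094 with array weights. Adjusted for the 3'-minus-5' index, the dimmer BMP15 probe set read -0.025, GDF9 -0.087, ZP2 -0.038, ZP3 0.32, NLRP5 -0.089 and UCHL1 0.057. None of these was called, and the cause was not tested.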
